A study of Mus musculus with 8 samples.

Results

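Mbp, Mog, Mag, Olig1, Olig2, Myrf and Cspg4 are genes of myelin and of the oligodendrocyte lineage, chosen by their symbols as 7 of the 32285 features that were counted. They were followed in nuclei from the paraflocculus/flocculus (PF/F), lobules of the lateral cerebellum, of wild-type (WT) mice and of Tbx1+/- mice, which carry 1 functional copy of the T-box transcription factor gene Tbx1 in every cell. The mice were at postnatal day 5.5 (P5.5), the WT mice were littermates, and 5 mice were pooled in each library, so differences between mice are hidden. Each genotype had 2 PF/F libraries, 1 from each of 2 batches of animals, and the same design was used for the petrous temporal bone (PTB), which encloses the PF/F. Single-nucleus RNA sequencing counted unique molecular identifiers (UMIs), each standing for 1 captured RNA molecule.

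The deposited annotation placed 1624 of 48237 PF/F nuclei in a type named Oligodendrocyte, and the other nuclei in 15 further types. There were 486 and 282 oligodendrocyte nuclei in WT replicates 1 and 2, and 414 and 442 in Tbx1+/- replicates 1 and 2. These nuclei held 1268256 to 2017719 UMIs per library, with a median of 2960 to 3990.5 UMIs per nucleus. Levels are given as counts per 1000000 UMIs (CPM) of all nuclei of a type summed within a library, so that the library and not the nucleus is the replicate. Between 50 and 85 barcodes were shared by any pair of PF/F libraries, and 0 of the shared barcodes were oligodendrocyte nuclei in both.

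Oligodendrocytes wrap axons in myelin, a stack of membrane that speeds conduction. They arise from oligodendrocyte precursor cells (OPCs), which divide and migrate, then leave the cell cycle and pass through a premyelinating state before they build myelin. Olig1 and Olig2 encode basic helix-loop-helix factors of the whole lineage, Myrf encodes a factor that turns on myelin genes in differentiating cells, and Cspg4 encodes a proteoglycan of the OPC surface that is also made by pericytes. Mbp encodes a protein that compacts the myelin membrane, Mag an adhesion molecule of the inner, axon-facing membrane, and Mog a protein of the outermost myelin surface that appears late. The cerebellum of a mouse of this age is only beginning to be myelinated.

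The promoters of 3 of these genes are shown because the counts by cell type set the genes apart: Mag was found mainly in oligodendrocytes, Mog also in neurons and Cspg4 also in pericytes. Each runs 5′ to 3′ along the gene's own strand, from 250 bases before the start of the RefSeq transcript to 50 bases after it, on GRCm38.p6. Capitals mark the sequence CANNTG, the E-box that basic helix-loop-helix factors such as Olig1 and Olig2 can bind.
Mag (chr7:30914814-30915113, minus strand): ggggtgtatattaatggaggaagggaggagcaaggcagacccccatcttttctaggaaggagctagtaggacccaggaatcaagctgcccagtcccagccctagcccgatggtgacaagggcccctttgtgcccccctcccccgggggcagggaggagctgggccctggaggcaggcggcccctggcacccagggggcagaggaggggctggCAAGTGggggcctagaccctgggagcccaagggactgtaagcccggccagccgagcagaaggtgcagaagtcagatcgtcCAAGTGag
Mog (chr17:37023349-37023648, minus strand): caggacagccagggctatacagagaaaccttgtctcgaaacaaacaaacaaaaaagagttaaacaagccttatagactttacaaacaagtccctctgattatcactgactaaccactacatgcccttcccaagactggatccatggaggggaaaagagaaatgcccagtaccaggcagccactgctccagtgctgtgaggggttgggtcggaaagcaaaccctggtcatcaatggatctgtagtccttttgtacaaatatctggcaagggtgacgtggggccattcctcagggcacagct
Cspg4 (chr9:56864854-56865153, plus strand): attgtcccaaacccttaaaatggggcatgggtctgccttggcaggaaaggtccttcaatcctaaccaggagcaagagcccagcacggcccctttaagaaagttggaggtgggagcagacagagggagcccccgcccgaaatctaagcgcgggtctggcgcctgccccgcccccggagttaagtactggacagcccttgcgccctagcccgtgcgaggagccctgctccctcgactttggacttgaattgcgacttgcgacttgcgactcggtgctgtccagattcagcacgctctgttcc
The Mag window held 2 E-boxes, both reading CAAGTG, and 1 copy of ACAAAG, a Sox factor motif, on either strand. The Mog and Cspg4 windows held 0 E-boxes and 0 copies of ACAAAG or of AACAAT, and the Olig2 window held 0 E-boxes and 1 copy of AACAAT. Among 32851 RefSeq promoters of the same length, 72.3% held an E-box, 18.7% held ACAAAG and 10.7% held AACAAT, so a match is common. These are matches of letters within the windows and not measured binding.

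In the mm10 build used for counting, Mag spans chr7:30899176-30914873 on the minus strand, Mog chr17:37010743-37023398 on the minus strand, Myrf chr19:10208272-10240748 on the minus strand and Cspg4 chr9:56865033-56899870 on the plus strand. Olig2 (chr16:91225457-91228677) and Olig1 (chr16:91269772-91271933) are neighbours on the plus strand of chromosome 16, with 41094 bases between them. The last 157 bases of Olig1 are overlapped on the other strand by Gm15966, which is itself a counted feature, so the Olig1 counts carry that uncertainty. Mog is overlapped by Gm22388 and Mbp by Rpl21-ps8, neither of them a counted feature. UMIs from introns as well as exons entered the counts.

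Olig2, Mag, Myrf and Mbp were higher in oligodendrocytes than in each of the 15 other types in all 4 libraries. Olig2 was at 127 and 151 CPM in WT replicates 1 and 2 and at 103 and 126 CPM in Tbx1+/- replicates 1 and 2. Astroglia came next, with 14.6 ± 4.76 CPM (SD, n = 4 libraries) against 127 ± 19.4 CPM in oligodendrocytes. Myrf was at 32.3, 28.4, 28.9 and 39.2 CPM in the same order of libraries, and Purkinje cells followed with 3.09 ± 1.43 CPM. Both transcription factor genes thus stood several-fold above the next type in every library, at low absolute counts for Myrf, which had 216 UMIs in the 1624 nuclei. These levels, like all levels by type below, are descriptions with no test, since the types were made from the same counts.

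Mag was at 101 and 50.5 CPM in oligodendrocytes of WT replicates 1 and 2 and at 80.0 and 119 CPM in Tbx1+/- replicates 1 and 2. No other type had a mean above the 5.86 ± 4.85 CPM of the immune nuclei, a value that rests on 8 UMIs. Mbp, the most abundant of these RNAs in oligodendrocytes by UMIs, was at 744 and 1090.5 CPM in the WT libraries and at 749 and 1301 CPM in the Tbx1+/- libraries. Its mean of 971 ± 274 CPM was 39.6-fold the level in differentiated granule neurons, the most numerous type.

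Outside oligodendrocytes, the Mbp level differed between types. The counts are per gene and do not tell transcripts of Mbp apart, and free RNA was not removed from them. Granule neuron progenitors (GNPs) had 46.2 to 54.8 CPM over the 4 libraries and differentiated granule neurons 21.4 to 26.2 CPM, so these ranges did not overlap. Astroglia had 33.3 to 35.7 CPM and differentiated GABA interneurons 34.3 to 44.2 CPM. In Tbx1+/- replicate 2 the immune nuclei were at 115 CPM and the meningeal nuclei at 80.6 CPM, the highest non-oligodendrocyte values of Mbp in any library, from 54 and 65 UMIs. After each nucleus was thinned to 2000 UMIs, 8.75% ± 0.504 of GNPs and 4.55% ± 0.363 of differentiated granule neurons held an Mbp UMI (SD, n = 4), against 28.9% ± 2.53 of oligodendrocytes.

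Olig1 was higher in oligodendrocytes than in 14 of 15 types in all 4 libraries. It was at 47.4 and 71.8 CPM in WT replicates 1 and 2 and at 32.6 and 57.0 CPM in Tbx1+/- replicates 1 and 2. The exception was the pericytes of WT replicate 1, at 57.4 CPM from 2 UMIs in a type with 74 nuclei over the 4 libraries. Only 24.1% ± 9.17 of all Olig1 UMIs in annotated nuclei lay in oligodendrocytes, against 50.04% ± 5.40 for its neighbour Olig2 (SD, n = 4). In astroglia Olig1 was at 13.8 and 8.11 CPM in the WT libraries and at 8.02 and 11.1 CPM in the Tbx1+/- libraries, so the genotypes overlapped there.

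Cspg4 had its highest mean, 336 ± 130 CPM, in pericytes, the mural cells of small vessels, with 222 to 488 CPM over the 4 libraries. Oligodendrocytes came second, at 94.9 and 101 CPM in WT replicates 1 and 2 and at 113 and 76.3 CPM in Tbx1+/- replicates 1 and 2. Because pericytes numbered only 74 nuclei, they held 70 Cspg4 UMIs and oligodendrocytes 617. The next type, endothelial cells, was at 18.9 ± 5.13 CPM.

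**Figure D1:**
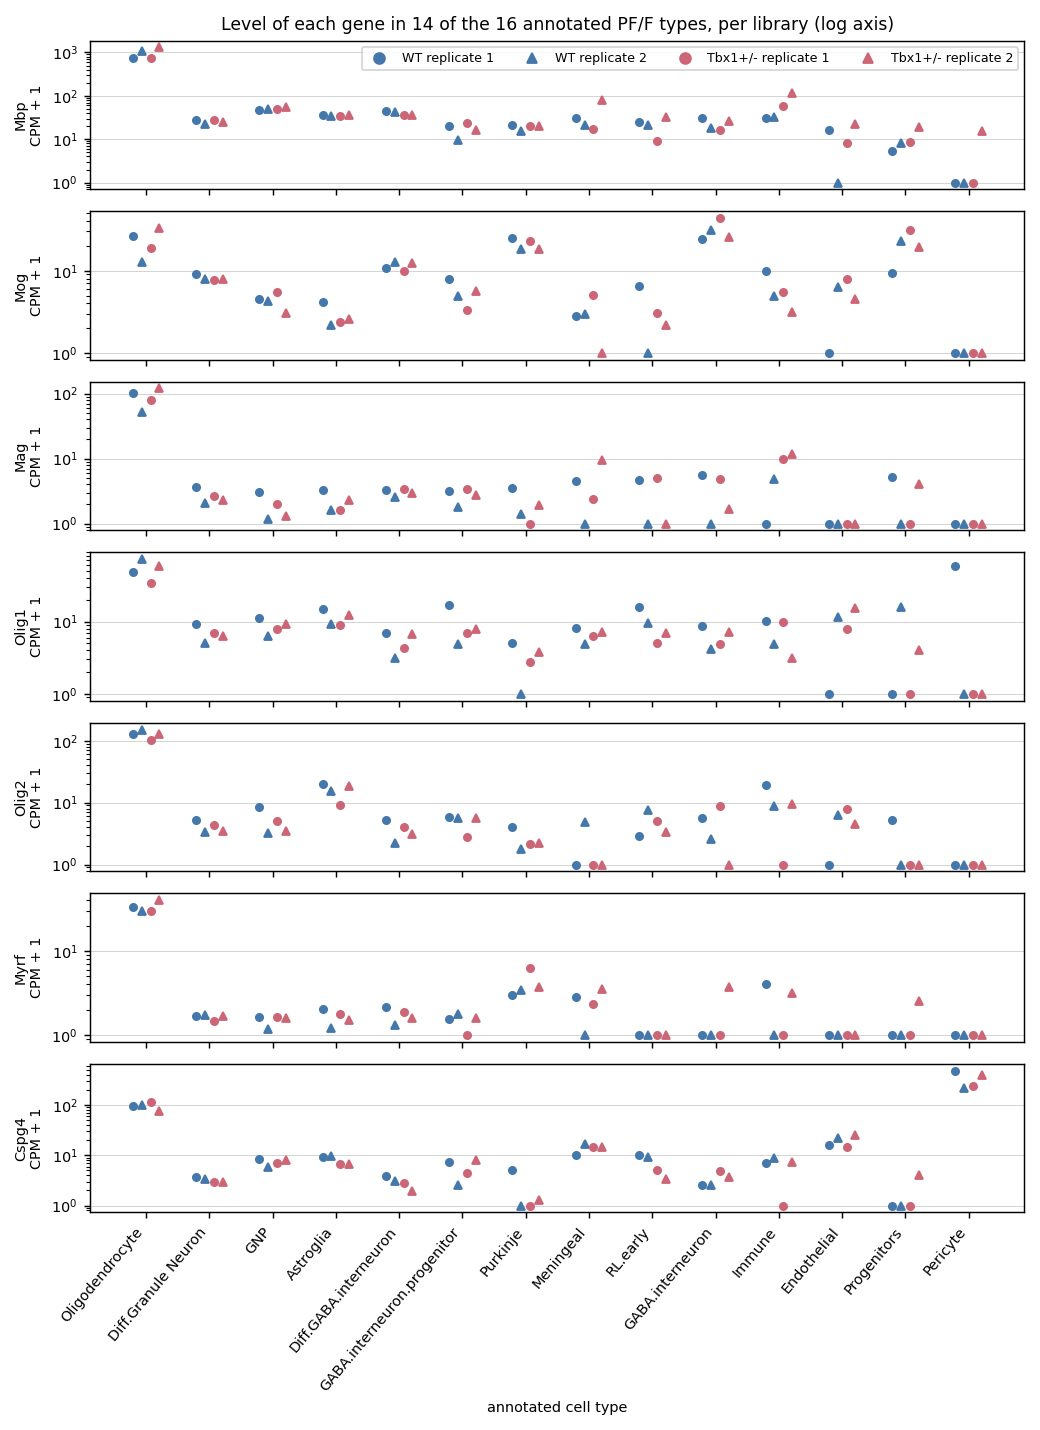
Level of each gene in 14 of the 16 annotated PF/F types. The vertical axes show CPM + 1 on log scales, and each symbol is 1 library, blue for WT and red for Tbx1+/-, circles for replicate 1 and triangles for replicate 2. Oligodendrocytes stand above all the other types shown for Mbp, Mag, Olig2 and Myrf, pericytes lead for Cspg4, and several neuron types reach the oligodendrocyte level for Mog.

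Mog did not follow the other myelin genes. In oligodendrocytes it was at 25.5 and 11.8 CPM in WT replicates 1 and 2 and at 17.8 and 32.2 CPM in Tbx1+/- replicates 1 and 2. The nuclei annotated as GABA.interneuron had a higher mean, 30.2 ± 8.92 CPM, and a range of 23.0 to 42.7 CPM. Purkinje cells (17.2 to 24.2 CPM) and Progenitors (8.45 to 30.4 CPM) overlapped the oligodendrocyte range. Oligodendrocytes were higher than 10 of the 15 other types in all 4 libraries, and only 10.5% ± 4.51 of all Mog UMIs in annotated nuclei were theirs, against 69.8% ± 5.56 of Mag UMIs and 62.4% ± 4.54 of Myrf UMIs (SD, n = 4).

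The ratio of Mog to Mag UMIs, which does not depend on a type's depth, differed between oligodendrocytes and neurons. In oligodendrocytes it was 0.253, 0.234, 0.222 and 0.271 in WT replicates 1 and 2 and Tbx1+/- replicates 1 and 2. In differentiated granule neurons it was 3.03, 6.53, 4.12 and 5.42 in the same order, and the 2 sets of values did not overlap. Summed over the 4 libraries, Purkinje cells held 186 Mog and 9 Mag UMIs, GABA.interneuron nuclei 81 and 5, and oligodendrocytes 153 and 606. In astroglia both were sparse, with 51 and 34 UMIs in 7152 nuclei.

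At equal depth Mog was again found in a higher share of GABA.interneuron nuclei than of oligodendrocytes. After thinning to 2000 UMIs, a Mog UMI was held by 6.24% ± 2.08 of GABA.interneuron nuclei, 4.22% ± 0.695 of Purkinje cells, 2.54% ± 0.766 of oligodendrocytes and 0.294% ± 0.150 of astroglia (SD, n = 4). The ranges over the libraries were 4.56% to 9.15% for GABA.interneuron nuclei and 1.64% to 3.30% for oligodendrocytes, and did not overlap. Without thinning the shares were 18.1% ± 3.16 for GABA.interneuron nuclei, whose median depth was 5259 to 8069 UMIs, and 4.55% ± 1.43 for oligodendrocytes.

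**Figure D2:**
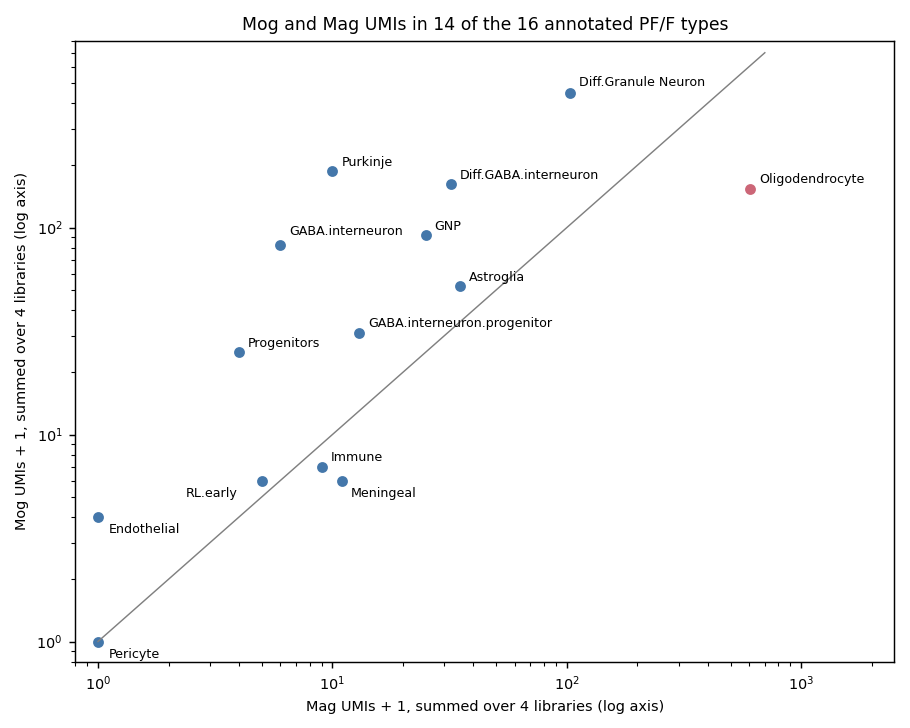
Mog UMIs against Mag UMIs in 14 of the 16 annotated PF/F types, summed over the 4 libraries, both as UMIs + 1 on log axes, with a grey line where they are equal. Oligodendrocytes (red) lie below the line with 153 Mog and 606 Mag UMIs, and Purkinje cells lie above it with 186 and 9.

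Likeness between genes was described by Pearson's r of log2(CPM + 1) over the 16 type means, among 15705 genes with at least 10 CPM in 1 type or more. The types share libraries, and the low values share the same sparse background, so no p is given. Mbp and Mag had r = 0.90, Mag and Myrf 0.89, and Mbp and Olig2 0.88, while Mbp and Mog had 0.34 and Mog and Cspg4 -0.57. The genes most like Mog were Dusp15, Chd5 and Jakmip3 (r = 0.94, 0.93 and 0.93), which were highest in oligodendrocytes, GABA.interneuron nuclei and Progenitors in that order. Mag was closest to Gm14114, Neu4 and 1700047M11Rik, Myrf to Gm32531, Gm34923 and Neu4, and Mbp to Gm34923, Efcab14 and Mag, all highest in oligodendrocytes. Olig2 was closest to Srpk3, Amz1 and Plxnb3 and Olig1 to Cdc37l1, Lrch3 and Sirt2, again highest in oligodendrocytes, and Cspg4 to Tyw5, Sept7 and Limd1, which were highest in pericytes.

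Lists of genes known for other stages and cell types place these levels. Of 12 OPC genes, 8 were highest in oligodendrocytes by mean CPM, among them Lhfpl3 (3869 ± 600.0 CPM), Ptprz1 (1736 ± 159 CPM) and Pdgfra, the receptor for a growth factor that keeps OPCs dividing (484 ± 101 CPM). Of 14 genes of committed or premyelinating oligodendrocytes, 12 were highest there, led by Bcas1 at 1251 ± 169 CPM and with Enpp6, a marker of cells that have just begun to differentiate, at 301 ± 50.3 CPM. Of 27 genes of myelin and mature oligodendrocytes, 13 were highest there. Opalin, a gene of mature oligodendrocytes, had 1 UMI in all 1624 nuclei. The nuclei of the Oligodendrocyte type thus carried OPC and premyelinating genes at high levels and late myelin genes at low levels or not at all.

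Of 15 oligodendrocyte transcription factor genes, Sox10 among them at 513 ± 26.1 CPM, 12 were highest in oligodendrocytes. Of 14 genes for receptors and brakes of differentiation 4 were, including Gpr17, a receptor of premyelinating cells, at 156 ± 6.64 CPM. Of 19 cholesterol synthesis genes, whose product myelin membrane needs in bulk, 3 were. None of the genes on the lists for astroglia, granule lineage, GABAergic, Purkinje, immune, endothelial, pericyte, meningeal, erythroid, Schwann and cycling cells and for choroid plexus was highest in oligodendrocytes. Their summed levels there were 389.5 to 589 CPM for 4 granule lineage genes, 292 to 457 CPM for 7 astroglial genes, 87.6 to 105 CPM for 4 immune genes and 3.13 to 19.3 CPM for 4 pericyte genes.

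Within the Oligodendrocyte type, Cspg4 and the pair Mog and Mag marked different nuclei. A Cspg4 UMI without a Mog or Mag UMI was found in 434 nuclei, a Mog or Mag UMI without a Cspg4 UMI in 214, both in 8 and neither in 968. Of the 187 nuclei with a Mag UMI, 3.21% also held Cspg4, against 30.3% of the 1437 nuclei without Mag. At a fixed depth of 2000 UMIs per nucleus, 0.812% to 4.15% of the nuclei with Mog or Mag held Cspg4 and 16.4% to 21.1% of the others did, with no overlap between these ranges over the 4 libraries. The nuclei sorted in this way by 3 of the genes were then summed within each library, and the remaining genes were read as descriptions.

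Mbp and Myrf followed Mog and Mag. Mbp was at 3779, 4802, 3603 and 4999 CPM in the nuclei with Mog or Mag of WT replicates 1 and 2 and Tbx1+/- replicates 1 and 2, and at 61.9, 110.3, 90.6 and 52.5 CPM in the nuclei with Cspg4. Myrf was at 107, 74.3, 104 and 117 CPM in the first set and at 5.80, 0, 5.66 and 1.94 CPM in the second. Every library had both genes higher in the nuclei with Mog or Mag. Of the nuclei with a Mag UMI 98.4% held Mbp and 45.5% held Myrf, against 24.6% and 6.40% of those without. These shares pool the libraries and were not adjusted for depth. Median UMIs per library were 3516 to 5507 in the nuclei with Mog or Mag and 2880 to 3630 in those with neither marker.

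Olig1 and Olig2 were found in both sets. Olig2 was at 126 ± 32.8 CPM in the nuclei with Cspg4 and at 91.4 ± 22.1 CPM in those with Mog or Mag (SD, n = 4), and it was the lower with Mog or Mag in 3 of 4 libraries. Olig1 was at 62.6 ± 24.8 and 26.6 ± 11.02 CPM, and lower with Mog or Mag in all 4 libraries, from only 30 UMIs in that set. An Olig2 UMI was in 32.1% of the nuclei with Mag and in 37.2% of those without, again not adjusted for depth.

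The listed genes also differed between the sets. Of 13557 genes with at least 10 UMIs in both sets together, 24.9% were higher with Cspg4 and 11.1% higher with Mog or Mag in all 4 libraries, and the counts of listed genes stand beside these shares. The nuclei with Cspg4 had Pdgfra at 806 ± 111 CPM and Ptprz1 at 2390.2 ± 254 CPM, against 55.7 ± 28.8 and 560.2 ± 50.2 CPM in the nuclei with Mog or Mag. Of the 11 OPC genes besides Cspg4, 9 were higher with Cspg4 in all 4 libraries, and Tnr, an extracellular matrix gene, and Neu4, a sialidase gene, were higher with Mog or Mag. The genes of dividing cells Top2a and Mki67 were at 336 ± 40.3 and 124 ± 36.4 CPM with Cspg4 and at 69.1 ± 37.9 and 54.0 ± 15.2 CPM with Mog or Mag, higher with Cspg4 in all 4 libraries, and both were highest in GNPs by mean CPM (728 and 252). Some genes of other cell types with at least 10 UMIs were also higher with Cspg4 in all 4 libraries. They were 2 of 4 granule lineage, 2 of 3 Purkinje, 2 of 7 astroglial and 1 of 3 Schwann cell genes, and Ttr. None of the GABAergic, immune, endothelial, pericyte, meningeal and erythroid genes was, and 1 astroglial gene was higher with Mog or Mag. Beside these counts stands the 24.9% of all genes that were higher with Cspg4. The granule lineage genes summed to 377 to 634 CPM with Cspg4 and 261 to 512 CPM with Mog or Mag, and their part in the difference of Top2a and Mki67 was not tested.

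The nuclei with Mog or Mag had Bcas1 at 3201 ± 428 CPM, Tcf7l2, a Wnt pathway factor of premyelinating cells, at 2038 ± 78.4 CPM and Enpp6 at 1126 ± 113 CPM. The nuclei with Cspg4 had 372 ± 93.2, 336 ± 59.3 and 18.1 ± 9.19 CPM of these genes. Of the 14 genes of committed or premyelinating oligodendrocytes 11 were higher with Mog or Mag in all 4 libraries, as were 14 of 20 genes of myelin and mature oligodendrocytes with at least 10 UMIs besides Mog and Mag, and 0 of either list were higher with Cspg4 in all 4. Of 15 transcription factor genes 7 were higher with Mog or Mag and 5 with Cspg4, of 13 receptor and brake genes 2 and 8, and of 19 cholesterol synthesis genes 6 and 3. Of the late genes, Mobp reached 19.8 to 322 CPM and Opalin 0 to 4.96 CPM with Mog or Mag. The 968 nuclei with neither marker lay between for Mbp at 424 ± 114 CPM, Myrf at 25.2 ± 3.48 CPM and Pdgfra at 451 ± 118 CPM. Their Olig2 was above both sets in WT replicates 1 and 2 and Tbx1+/- replicate 1, at 138, 173 and 112 CPM. In Tbx1+/- replicate 2 it lay between them at 128 CPM.

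**Figure D3:**
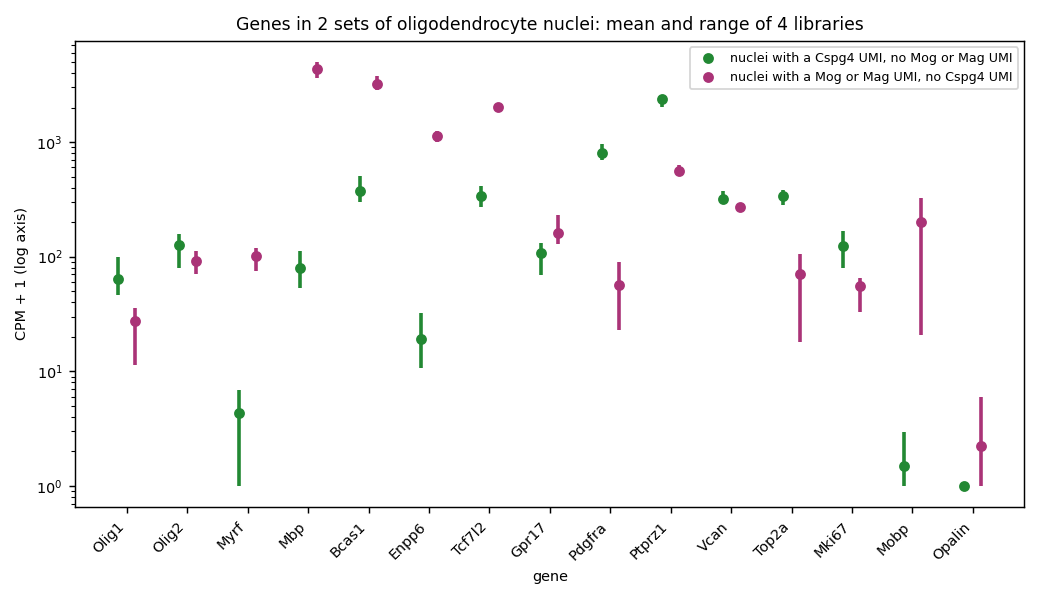
Levels of genes in oligodendrocyte nuclei that held a Cspg4 UMI and no Mog or Mag UMI (green, 434 nuclei) and in those that held a Mog or Mag UMI and no Cspg4 UMI (purple, 214 nuclei). Points are means and bars the range of 4 libraries, as CPM + 1 on a log axis. Mbp, Bcas1, Enpp6, Tcf7l2 and Myrf are higher in the purple set, Pdgfra, Ptprz1, Top2a and Mki67 in the green set, and Olig2 overlaps.

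The UMIs of the myelin genes were concentrated in few nuclei. In WT replicate 1, 330 of 486 oligodendrocyte nuclei held no Mbp UMI and 79 held 5 or more, up to 73. In each library the 28 to 49 nuclei with the most Mbp held 69.6% to 75.9% of its UMIs. For Olig2 the same number of nuclei held 38.7% to 50.4%, for Olig1 55.7% to 100% and for Myrf 78.5% to 100%. The shares of Olig1 and Myrf rest on low counts. Mog in WT replicate 1 came from 17 nuclei, and 1 of them held 17 of its 49 UMIs. The Mog level of a library therefore rests on few nuclei.

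By the share of nuclei with a UMI, thinned to 2000 UMIs, Mbp led with 28.9% ± 2.53 of oligodendrocytes, followed by Olig2 with 22.6% ± 3.49 and Cspg4 with 17.5% ± 2.17 (SD, n = 4). Olig1 was in 9.92% ± 2.56, Mag in 8.40% ± 1.84, Myrf in 5.78% ± 0.636 and Mog in 2.54% ± 0.766. The library ranges of Olig1 and Mag overlapped, those of Olig2 and Cspg4 overlapped, and Mog lay below Myrf in all 4 libraries. In differentiated granule neurons, at median depths of 2572 to 3483 UMIs against 2960 to 3990.5 in oligodendrocytes, the shares were 4.55% for Mbp, 1.45% for Mog, 1.24% for Olig1 and 0.117% to 0.622% for the other 4 genes.

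The comparison of Tbx1+/- with WT libraries asked whether these genes changed with the loss of 1 Tbx1 copy. None of the 7 genes passed the test in oligodendrocytes. Tbx1 itself had 0 UMIs in the oligodendrocyte nuclei of all 4 libraries, and in all annotated PF/F nuclei it had 4 and 10 UMIs in WT replicates 1 and 2 and 11 and 13 in Tbx1+/- replicates 1 and 2, too few to check the genotypes. Changes are log2 ratios of Tbx1+/- to WT from edgeR's quasi-likelihood test on the UMI sums, with Benjamini-Hochberg adjustment over all 12354 genes tested, and a gene was called at an adjusted p under 0.05 and a change over 1.5-fold. Of the genes tested 0 were called (0%), and 167 had an unadjusted p under 0.05 (1.35%), among which were 0 of the 7. DESeq2 called 0 genes as well and had 6 with an unadjusted p under 0.05. Each library is a pool of mice, so these p-values measure the spread between pools.

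Of Mbp, Mog and Mag, Mog had the largest estimate in oligodendrocytes, 0.43 ± 0.38 (log2, SE), followed by Mag with 0.41 ± 0.31 and Mbp with 0.18 ± 0.35, each at an adjusted p of 1.00 by edgeR. The values per library, given above by type, overlapped between genotypes for all 3. For Mag the 2 batches went opposite ways, with log2 ratios of -0.34 in batch 1 and 1.24 in batch 2, and for Mog they were -0.52 and 1.45. Mbp differed more between batches than between genotypes, with replicate 2 above replicate 1 by 0.55 in WT and by 0.80 in Tbx1+/- libraries on the log2 scale.

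Among the regulators, Olig1 had an estimate of -0.34 ± 0.31 and Olig2 of -0.25 ± 0.22, and Myrf had 0.20 ± 0.25 (log2, SE, adjusted p of 1.00 by edgeR for each). With 1 library left out, Olig1 ran from -0.86 without Tbx1+/- replicate 2 to 0.0032 without WT replicate 2, and Olig2 from -0.43 to -0.089 without the same libraries. Olig2 was the 1 gene of the 7 whose genotypes did not overlap in CPM, with 103 and 126 CPM in Tbx1+/- libraries and 127 and 151 CPM in WT libraries. Of the genes with at least 10 UMIs, 14.9% also had both Tbx1+/- libraries below both WT libraries, and 11.1% had both above. Olig1 was lower in the Tbx1+/- library in both batches too, by log2 ratios of -0.54 and -0.33, whereas Myrf went down in batch 1 and up in batch 2 (-0.16 and 0.46). Cspg4, the OPC gene, was nearest to 0 with -0.04 ± 0.23, and its batches had log2 ratios of 0.26 and -0.40.

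With the replicate number as a block, which takes out the difference between batches, 2 genes were called in oligodendrocytes (0.0162%) and 540 had an unadjusted p under 0.05 (4.37%). The called genes were Ttr, a choroid plexus transcript, and Nkain2, and none of the 7 was among them. In that paired fit Mag had 0.41 ± 0.16 and Olig1 -0.40 ± 0.19 (log2, SE). Their unadjusted p were 0.00927 and 0.0356 and their adjusted p 0.973 and 0.999 by edgeR. Mag went opposite ways in the 2 batches, with log2 ratios of -0.34 and 1.24, a spread that its SE and p do not show. For Olig1 the batches had -0.54 and -0.33. Ttr was at 51.6 and 46.5 CPM in oligodendrocytes of the WT libraries and at 91.1 and 209 CPM in those of the Tbx1+/- libraries, and the erythroid genes Hbb-bs and Hba-a1 had estimates of 0.42 ± 0.20 and 0.61 ± 0.24 in the same nuclei (log2, SE, without the block). Their part in the levels of the 7 genes was not tested.

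Leaving out WT replicate 1 led to 7 calls, all higher in Tbx1+/- libraries, among them Mobp, a myelin gene that was at 47.4 and 3.15 CPM in WT replicates 1 and 2 and at 20.0 and 66.9 CPM in Tbx1+/- replicates 1 and 2. Mag then had 0.98 ± 0.30 (log2, SE) with an adjusted p of 0.344 by edgeR, the lowest adjusted p of any of the 7 genes under the 10 alternatives. WT replicate 2, which that fit leaves as the only WT library, had the lowest Mag and Mog levels of the 4. Mag was at 0.042 without WT replicate 2, at 0.059 without Tbx1+/- replicate 2 and at 0.10 without the nuclei with the most UMIs, and Mog was at 1.11 without WT replicate 1 and at -0.13 without Tbx1+/- replicate 2 (log2).

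**Figure D4:**
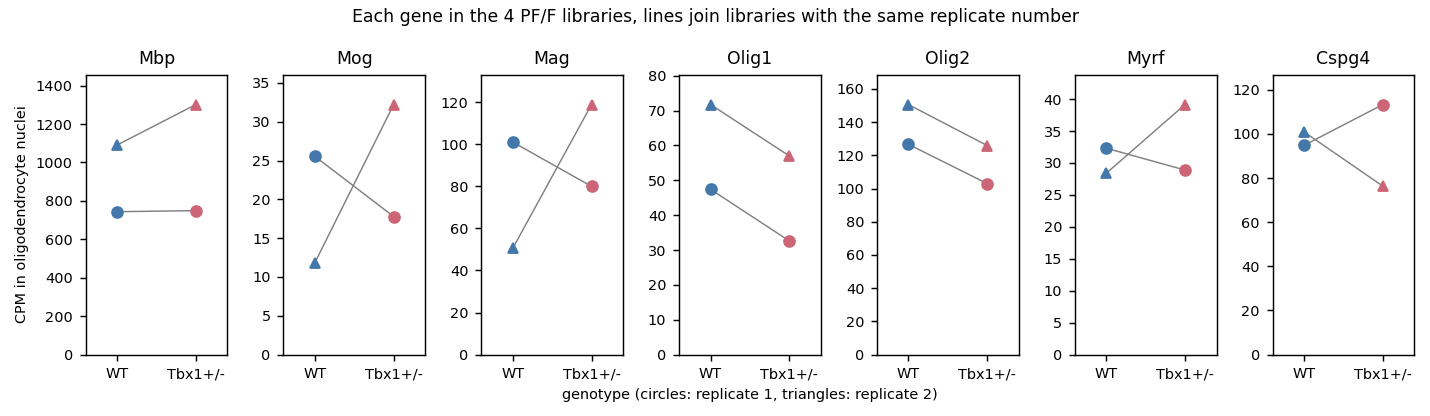
CPM of each gene in summed oligodendrocyte nuclei of the 4 PF/F libraries, WT in blue and Tbx1+/- in red, with lines joining libraries of the same replicate number and each axis starting at 0. The lines cross for Mog, Mag, Myrf and Cspg4 and run down together for Olig1 and Olig2, where Olig2 falls from 127 to 103 and from 151 to 126 CPM.

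In the fit of all 4 libraries without the block, 0 genes of any list were called in oligodendrocytes. The 14 tested genes of committed or premyelinating oligodendrocytes had a median estimate of 0.15, with 13 above 0. The 17 tested genes of myelin and mature oligodendrocytes had 0.16, with 14 above 0. Genes of a list are not independent. Summed, the first list was at 4648 and 6022 CPM in the WT libraries and at 5099 and 6218 CPM in the Tbx1+/- libraries. All 27 genes of the second were at 2090 and 2440 CPM in WT and at 2074 and 3063 CPM in Tbx1+/- libraries. Both sums, given for replicates 1 and 2 in that order, overlapped between genotypes. The 12 OPC genes had 0.05 with 9 above 0, and the 14 transcription factor genes had 0.01 with 9 above 0, beside a median of 0.0018 over all genes tested (log2). The medians for 12 receptor and brake genes and 19 cholesterol synthesis genes were 0.13 and 0.14. At an unadjusted p under 0.05, 0 genes of these 6 lists passed in either direction.

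The number of oligodendrocyte nuclei also did not separate the genotypes. They made up 3.97% and 3.08% of annotated nuclei in WT replicates 1 and 2 and 2.99% and 3.402% in Tbx1+/- replicates 1 and 2. The log2 difference was -0.13, with p = 0.67 in an exact two-sided permutation test of 2 against 2 libraries, which cannot give a p below 0.33, and it was -0.41 in batch 1 and 0.14 in batch 2. Nuclei with a Mog or Mag UMI and no Cspg4 UMI made up 11.7% of oligodendrocytes in both WT libraries and 12.3% and 16.5% in the Tbx1+/- libraries, and those with Cspg4 alone 26.3%, 33.0%, 25.6% and 24.2% in the same order. These shares are not adjusted for depth, and the median UMIs of the nuclei were 3485, 3990.5, 2960 and 3930. Thinned to 2000 UMIs, 9.28% and 7.59% of oligodendrocytes held Mog or Mag in the WT libraries, and 10.7% and 12.3% in the Tbx1+/- libraries. Both Tbx1+/- values were thus above both WT values. In CPM, where Mog and Mag each overlapped between genotypes, 11.1% of genes with at least 10 UMIs had both Tbx1+/- libraries above both WT libraries. At the thinned depth Cspg4 was held by 17.2% and 19.6% in WT and by 18.7% and 14.6% in Tbx1+/- libraries, where the genotypes overlapped. An exact permutation test of 2 against 2 libraries cannot pass the threshold for these shares.

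Summed over all annotated PF/F nuclei, where the number of oligodendrocytes and their content enter together, 0 of 20756 genes were called (0%) and 99 had an unadjusted p under 0.05 (0.477%), with 0 of the 7 among them. DESeq2 called 0 and had 29 with an unadjusted p under 0.05. Olig2 had an estimate of -0.41 ± 0.23 (log2, SE), which ran from -0.65 without WT replicate 2 to -0.12 without WT replicate 1, and its levels were 12.9 and 8.99 CPM in WT and 7.17 and 9.13 CPM in Tbx1+/- replicates 1 and 2. Mag was at 6.88 and 2.44 CPM in WT and at 3.997 and 5.84 CPM in Tbx1+/- libraries, with an estimate of 0.09 ± 0.50. With the replicate block 0 genes were called (0%), and 626 had an unadjusted p under 0.05 (3.02%), again with 0 of the 7 among them. All 7 genes overlapped between genotypes here, where 10.8% of the genes with at least 10 UMIs had both Tbx1+/- libraries below both WT libraries and 8.55% had both above. Cspg4 alone had the same sign in both batches (-0.33 and -0.11).

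**Figure D5:**
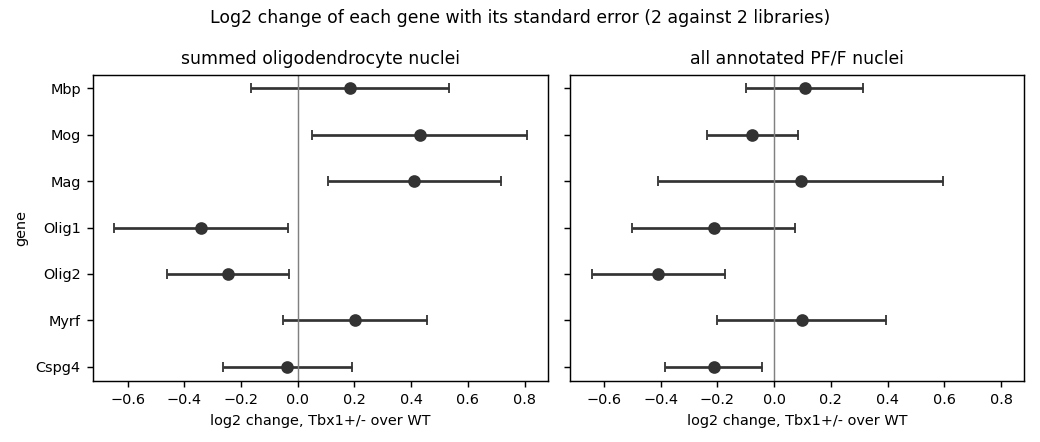
Log2 change of each gene, Tbx1+/- over WT, with its standard error from edgeR, in summed oligodendrocyte nuclei (left) and in all annotated PF/F nuclei (right), 2 against 2 libraries. Estimates run from -0.34 for Olig1 to 0.43 for Mog on the left and from -0.41 for Olig2 to 0.11 for Mbp on the right.

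In the PTB, where Schwann cells make the myelin of peripheral nerves, the 7 genes split differently. The annotated PTB nuclei are of cartilage, bone and connective tissue classes, and barcodes without an annotation there were used if they held at least 1000 detected genes. In the latter Mbp was at 212 and 216 CPM in WT replicates 1 and 2 and at 311 and 184 CPM in Tbx1+/- replicates 1 and 2, and Mag was at 15.1 to 21.4 CPM. Mog at 2.26 to 4.12, Olig1 at 2.21 to 3.94, Olig2 at 1.06 to 3.04 and Myrf at 1.17 to 1.53 CPM were low in all 4 libraries.

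In the barcodes with Mbp there, Mag and Sox10 were more frequent than Olig1, Olig2 and Mog. Of the 1846 unannotated PTB barcodes with at least 3 Mbp UMIs, 50.4% to 67.3% over the 4 libraries also held Sox10, a factor gene of both myelinating lineages, and 33.2% to 41.4% Mag, while 2.51% to 8.62% held Olig1 or Olig2 and 2.51% to 4.31% Mog. Of the 22480 barcodes with fewer Mbp UMIs, 15.6% to 27.9% held Sox10 and 1.47% to 2.03% Mag. Olig1 or Olig2 was in 1.26% to 2.75% of them and Mog in 0.199% to 0.827%. Within each library each was less frequent than with Mbp, although the ranges of Olig1 or Olig2 overlapped. These shares were not adjusted for depth. Median depths were 4216 to 5453 UMIs for the barcodes with at least 3 Mbp UMIs and 3027 to 4610.5 for the unannotated ones with fewer. Cspg4 was at 44.3 to 53.8 CPM in the annotated PTB nuclei and at 29.0 to 46.4 CPM in the others.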

How the data were processed

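Nuclei of the PF/F and PTB of P5.5 WT and Tbx1+/- mice were profiled in 8 libraries, 2 per genotype and tissue. The authors counted UMIs with Cell Ranger 7.0.0 on mm10, introns included, and the deposited counts are whole numbers without normalization. They precede the SoupX correction for free RNA and the filters on nuclei described in the paper, so free RNA remains in every level. Removal of doublets is not described. Cell types are those of the deposited annotation.

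For each library and type, UMIs were added up with Python 3.11.15. Genotypes were compared in R 4.3.3 with the quasi-likelihood test of edgeR 4.0.16 after filterByExpr and TMM scaling, and with DESeq2 1.42.0. The SE was obtained from the estimate and its F statistic. PF/F libraries held 44713226 to 60627200 UMIs. Thinning to 2000 UMIs used the expected share of nuclei, leaving out shallower ones (128 of 1624 oligodendrocytes). The fits were first tested on simulated data, where they missed most of the genes given a change.

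Same replicate numbers were taken as a batch, since the paper describes 2 batches of animals. Across genes, which are not independent, the departures of same-numbered libraries from the mean of their genotype correlated at 0.315 in oligodendrocytes and 0.55 in all nuclei. Genes named besides the 7 are the highest of each list in oligodendrocytes (up to 6), the 3 most alike to each of the 7 and called genes. Mobp, Opalin and Nkain2 were named after their values were seen. The genes and lists were chosen with earlier results of these data known. Alternatives were RLE factors, no filter, DESeq2, the replicate block, each library left out, no nuclei from the 8% with the most UMIs, and nuclei with at least 2000 detected genes. Fits that leave a genotype with 1 library assume that it varies like the other genotype. Promoters are from RefSeq (GRCm38.p6), which matched Mog, Mag, Olig2 and Cspg4, and gene positions from GENCODE vM21. Sequences of Mbp, Olig1 and Myrf are not shown. Some genes and types are not reported here.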

Additional observations from a re-analysis of the deposited data

How the results depend on the processing

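None of the 7 genes was called under any of the 10 alternatives, in oligodendrocytes or over all PF/F nuclei, where the count of calls was 0 throughout. In oligodendrocytes the count of calls went from 0 to 1 with no filter on low counts (Ttr) and to 2 with the replicate block (Ttr and Nkain2), and ran from 0 to 7 when 1 library was left out. Leaving out WT replicate 1 gave the 7, WT replicate 2 gave 3, Tbx1+/- replicate 1 gave 1 and Tbx1+/- replicate 2 gave 0. The block, a paired fit, changed no other call.

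In oligodendrocytes a log2 change reversed only in fits with 1 library left out, while the other alternatives used all 4 libraries again. Of 70 log2 changes under the alternatives, 63 in oligodendrocytes and 60 over all nuclei kept their direction. With 1 library left out, those in oligodendrocytes ran from -0.30 to 0.53 for Mbp, from -0.13 to 1.11 for Mog, from 0.042 to 0.98 for Mag, from -0.86 to 0.0032 for Olig1, from -0.43 to -0.089 for Olig2, from -0.082 to 0.39 for Myrf and from -0.32 to 0.21 for Cspg4. Over all nuclei they ran from -0.21 to 0.35 for Mbp, from -0.21 to 0.029 for Mog, from -0.47 to 1.04 for Mag, from -0.55 to 0.23 for Olig1, from -0.65 to -0.12 for Olig2, from -0.16 to 0.42 for Myrf and from -0.38 to -0.027 for Cspg4. Mog over all nuclei was at 0.045 in nuclei with at least 2000 detected genes, and Mag at -0.13 without the nuclei with the most UMIs. In oligodendrocytes, leaving out those nuclei moved Mog from 0.43 to 0.89 and Mag from 0.41 to 0.10, with an unadjusted p of 0.0274 for Mog and an adjusted p of 1.00 by edgeR for both. The cause was not tested.

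The mean Cspg4 level in oligodendrocytes was 79.4 CPM in nuclei with at least 2000 detected genes, against 96.4 CPM. The shares of nuclei with a UMI move with depth by construction. Thinned to 1000 UMIs and not thinned, they were 22.6% and 32.8% for Mbp, 1.42% and 4.55% for Mog, 4.93% and 11.4% for Mag, 5.58% and 17.7% for Olig1, 12.8% and 37.2% for Olig2, 2.87% and 10.9% for Myrf and 9.73% and 27.8% for Cspg4. Mog had the fewest UMIs in oligodendrocytes, 153.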

Other observations

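Barcodes without an annotation in the PF/F libraries also held these RNAs. Mbp was at 64.9 and 44.6 CPM there in WT replicates 1 and 2 and at 42.6 and 92.3 CPM in Tbx1+/- replicates 1 and 2. Mag was at 10.7 and 3.42 CPM in the WT libraries and at 2.50 and 14.9 CPM in the Tbx1+/- libraries, which is 11.7% to 27.1% of all Mag UMIs of a library. Tbx1+/- replicate 2 and then WT replicate 1 had the highest Mag levels here, as they did among the annotated oligodendrocytes. In WT replicate 1, 67 of the 97 Mag UMIs lay in barcodes with fewer than 1000 detected genes. The part was smaller elsewhere, with 4 of 24 in WT replicate 2 and 6 of 22 and 40 of 115 in Tbx1+/- replicates 1 and 2. Myrf was at 0.570 to 2.66 CPM, Olig2 at 6.13 to 12.7 CPM and Cspg4 at 6.13 to 12.0 CPM in these barcodes.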
